A study of Mus musculus with 12 samples.

Results

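Whole kidneys taken 21 days after diphtheria toxin were compared, gene by gene, with kidneys taken 5 days after it. The 6 libraries, 3 per day, were chosen by their labelled day from 12 in the series. All mice carried the Pod-TRECK genotype, in which podocytes bear a receptor for the toxin that mouse cells otherwise lack in a sensitive form, so that the toxin kills them. The mice at both days had received 100 ng of toxin intraperitoneally. The other 6 libraries, used here for reference, came from 3 untreated Pod-TRECK mice and from 3 mice at day 14 after the same dose. The labels name neither the promoter that drives the receptor, nor the strain, sex or age of the mice, and no toxin-treated mice without the receptor are among these samples. The series calls the 3 samples of a group biological replicates.

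Podocytes wrap the capillaries of the glomerulus with interlocking foot processes and hold back plasma protein. They hardly divide, so that lost cells are poorly replaced. When the barrier leaks, protein reaches the tubule downstream, and tubular cells are known to dedifferentiate, divide, secrete chemokines and draw in leukocytes, while fibroblasts of the interstitium lay down matrix. The comparison of day 21 with day 5 asks how the kidney at the last stage sampled differed from the kidney at the first stage. RNA came from whole kidney, so fewer cells of a type and less RNA per cell cannot be told apart.

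The 6 libraries held between 34214443 and 46420299 counted reads. Values per library are CPM, the count of a gene as a rate over the library's TMM-scaled size, and 3 values in a row are replicates 1, 2 and 3. Changes are log2 fold changes of day 21 over day 5 with their standard error (SE), and adjusted p-values are from edgeR's quasi-likelihood test with Benjamini-Hochberg adjustment over all genes tested. A gene rose or fell where the adjusted p was under 0.05. The labelled tissue matched its markers: Umod, the most abundant protein of urine, was between 2031 and 3658 CPM in the 6 libraries, and the proximal tubule gene Kap between 420 and 22838.

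The 3 day-21 libraries were not alike. Counting genes that lay at least 2-fold from the day-5 mean, replicate 1 held 2743 higher and 1847 lower, and replicate 3 held 2833 higher and 2112 lower. Replicate 2 held only 840 higher and 781 lower. Replicates 1 and 3 differed at least 2-fold from each other at 5.2% of genes, while replicate 2 differed from them at 22.1% and 22.7%. Across genes, which are not independent replicates, the rank correlation of replicate 2 was between 0.979 and 0.984 with the day-5 libraries. With the untreated libraries it was 0.983, 0.984 and 0.983, so by this measure replicate 2 lay as near the untreated mice as day 5. With the other day-21 libraries the rank correlation was 0.954 and 0.951. Mitochondrial genes held 11.8% of counts in day-21 replicates 1 and 3, 21.1% in replicate 2, and 18.2 to 20% in the day-5 libraries. Counts for the gene groups below are therefore given also for a fit without day-21 replicate 2.

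Of 19821 genes tested, 5325 changed (26.9%), of which 2983 were higher at day 21 (15% of genes tested) and 2342 lower (11.8%). Without day-21 replicate 2, 11506 of 20694 genes changed (55.6%), 5764 upward (27.9%) and 5742 downward (27.7%). Of the 5325 calls made with all libraries, 99.3% were also made without that library with the same sign, and they were 45.9% of the calls made without it. The share of upward calls depended on scaling: it was 56% with TMM factors, 45.2% with limma-voom and 86.9% when libraries were scaled to their totals alone, which moved the median change over all genes from 0.03 to 0.37. That median of 0.03 is the level against which each group below is to be read, and it was also 0.03 without replicate 2. TMM scaling holds it near 0, so it is set by the scaling and not measured. With library totals and without replicate 2 it was 0.52. Counts in each group are likewise to be read against the shares of all genes above. The spread between libraries was estimated over all 12. A fit of the 6 compared libraries alone called 506 of 18284 genes tested (2.77%), 265 higher and 241 lower. Counts from that fit are to be read against 2.77%, not the shares above, and are given here out of the genes listed. In that fit 25 of 28 mitosis and 13 of 27 S-phase genes fell. Rises were 10 of 22 macrophage, 4 of 9 MHC class II and 4 of 14 B and plasma cell genes. Also higher were 2 of 17 collecting duct, 1 of 33 matrix, 6 of 22 cholesterol and 4 of 19 clock genes. The podocyte (27 listed), complement (15), cytokine (27), endothelial (18) and acute phase (15) lists had 1 rise each. Also lower were 4 of 15 acute phase genes. The clock (19 listed), proximal tubule (28), fatty acid oxidation (23), immediate early (20) and stress response (20) lists had 2 falls each. Lower too were 1 of 18 endothelial genes, 1 of 8 liver genes and 1 of 19 p53 targets and cell cycle inhibitors. No tubular injury, T and NK cell, neutrophil, interferon, fibroblast, loop and distal tubule or ribosomal protein gene passed in it. All 3 day-21 libraries lay above all 3 day-5 libraries at 18% of genes tested and below them at 18%. Among genes that rose, the median change was 1.04, and 1564 rose by at least 2-fold. Among those that fell the median was -0.59, and 570 fell by at least 2-fold.

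**Figure D1:**
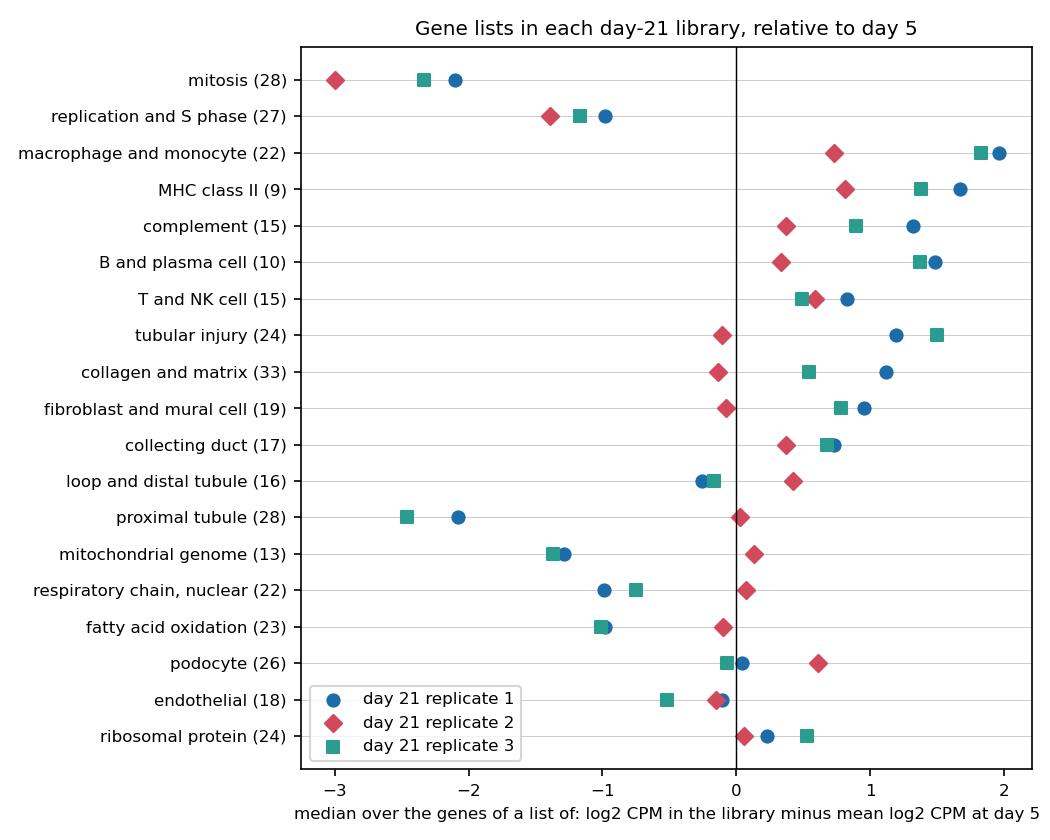
Median, over the genes of each list (number tested in parentheses), of log2 CPM in a day-21 library minus the mean log2 CPM of the 3 day-5 libraries. Cell division lists lie far to the left in all 3 libraries, whereas replicate 2 (diamonds) lies near 0 for proximal tubule, mitochondrial, injury and matrix lists.

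The clearest fall was in genes of cell division. Of 28 mitosis genes tested, 27 fell and none rose, with a median change of -2.54. The same 27 genes were below all day-5 libraries in each day-21 library, and 27 also fell without replicate 2, at a median of -2.33. Scaling to library totals left 27 falls. Mki67, the proliferation marker Ki-67, was at 47.2, 87.2 and 105 CPM at day 5 and at 16, 7.03 and 10.9 CPM at day 21. The groups did not overlap, although day-5 replicate 1 was the lowest of its group for Mki67 and for the other 26 genes that fell. The change of Mki67 was -2.82 ± 0.36 (SE, adjusted p = 0.00112), and the untreated mean was 4.68 ± 1.68 CPM (SD, n = 3).

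Motor proteins, kinases and cyclins of mitosis moved alike. Kif11, the kinesin that separates spindle poles, was at 12.1, 20.4 and 20.5 CPM at day 5 and at 3.29, 2.05 and 2.33 at day 21, a change of -2.78 ± 0.23 (adjusted p = 0.000226). Top2a, which untangles replicated chromosomes, went from 35.6, 59.9 and 64.5 CPM to 10, 6.93 and 8.44 (change -2.65 ± 0.28, adjusted p = 0.000486). Ccnb1, cyclin B1, which drives entry into mitosis, went from 12.6, 22.7 and 26.1 CPM to 3.32, 1.19 and 2.87 (change -3.04 ± 0.46, adjusted p = 0.00221). Replicate 2 was the lowest day-21 library for all of these, and its median over the list lay farther below the day-5 mean than those of replicates 1 and 3, which were -2.10 and -2.33 on the log2 scale. Of the day-21 libraries, the one that lay nearest day 5 over all genes lay farthest from it for mitosis. By rank correlation that library, replicate 2, was as near the untreated libraries as day 5. Its summed CPM of mitosis genes was 146, against 251 in both other day-21 libraries and 133, 107 and 101 in the untreated libraries. Hmmr, a spindle protein, Cdkn3, a cyclin-dependent kinase phosphatase, Pbk, a mitotic kinase, Kif20a, a kinesin of cytokinesis, and Esco2, which acetylates cohesin, were also among the 12 largest falls (among named genes whose groups did not overlap and whose average log2 CPM was 1 or more), with changes between -3.23 and -2.92.

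The exception was Kif23, a kinesin of the midbody, at 95.2, 95 and 104 CPM at day 5 and 129, 80.6 and 152 at day 21. It did not pass with all libraries (change 0.30 ± 0.18, adjusted p = 0.219) and rose without replicate 2 (0.51 ± 0.08, adjusted p = 0.000287). Its untreated mean was 69.5 CPM, above every other gene of the list in the untreated mice. How reads of overlapping genes were counted is not stated in the labels, so this value is uncertain.

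The promoters of mitosis genes often hold a short element, the cell cycle homology region, that recruits complexes which silence these genes in cells at rest. The letters TTTGAA and TTTCGAA were searched on both strands of RefSeq promoters (250 bases before to 50 after a gene's start, build GRCm38.p6). These coordinates are not those of the deposited table, which uses GRCm39. Of the 28 mitosis genes 23 had a promoter in the table, and 17 of the 23 held a match (73.9%), against 20.9% of 27025 genes in all and 3 of 20 S-phase genes (15%). The match is a description of the letters in the window. The stretches upstream of the start are shown for the 5 mitosis genes with the smallest adjusted p that held a match there (Cdc20 and Cdk1 tied), around the match nearest the start and with the matched letters in capitals (TTCAAA is TTTGAA read on the other strand).
Kif11, chr19:37376313-37376381, + strand: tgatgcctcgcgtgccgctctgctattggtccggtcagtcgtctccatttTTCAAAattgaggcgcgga
Top2a, chr11:99024190-99024262, - strand: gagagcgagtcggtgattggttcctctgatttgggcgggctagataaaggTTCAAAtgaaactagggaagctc
Mki67, chr7:135716422-135716527, - strand: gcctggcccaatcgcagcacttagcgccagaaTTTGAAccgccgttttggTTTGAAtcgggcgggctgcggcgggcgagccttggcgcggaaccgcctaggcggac
Cdc20, chr4:118437344-118437411, - strand: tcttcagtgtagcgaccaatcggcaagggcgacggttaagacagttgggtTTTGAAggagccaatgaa
Cdk1, chr10:69352913-69352977, - strand: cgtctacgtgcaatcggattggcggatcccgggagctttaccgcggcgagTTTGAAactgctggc
The match nearest the start began 19 bases before it in Kif11, 23 in Top2a, 98 in Mki67, 18 in Cdc20 and 15 in Cdk1. Matches farther upstream began at 140 and 179 bases in Top2a, 116 in Mki67 and 71 in Cdk1. Cdc20, which activates the anaphase-promoting complex, fell by 2.82 on the log2 scale, and Cdk1, the kinase partner of cyclin B, fell by 2.31.

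Genes of DNA replication fell too, by less. Of 27 S-phase genes 25 fell and none rose, at a median of -1.23, and all 27 were below every day-5 library in each day-21 library. Without replicate 2, 26 fell, and with scaling to library totals 19 fell. Mcm2, a subunit of the replicative helicase, was at 22.6, 25.9 and 28.1 CPM at day 5 and at 12.8, 12.8 and 12.9 at day 21 (change -0.99 ± 0.09, adjusted p = 0.00042). Its day-21 libraries were within 0.2 CPM of each other and close to the untreated mean of 11.4 ± 0.968 CPM. Rrm2, the inducible subunit of ribonucleotide reductase, was among the larger falls, from 28.7, 44.1 and 44 CPM to 10.4, 6.1 and 9.82 (change -2.14 ± 0.24, adjusted p = 0.000605). Gins2, a subunit of the helicase complex, did not pass, at -0.64 (adjusted p = 0.109).

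**Figure D2:**
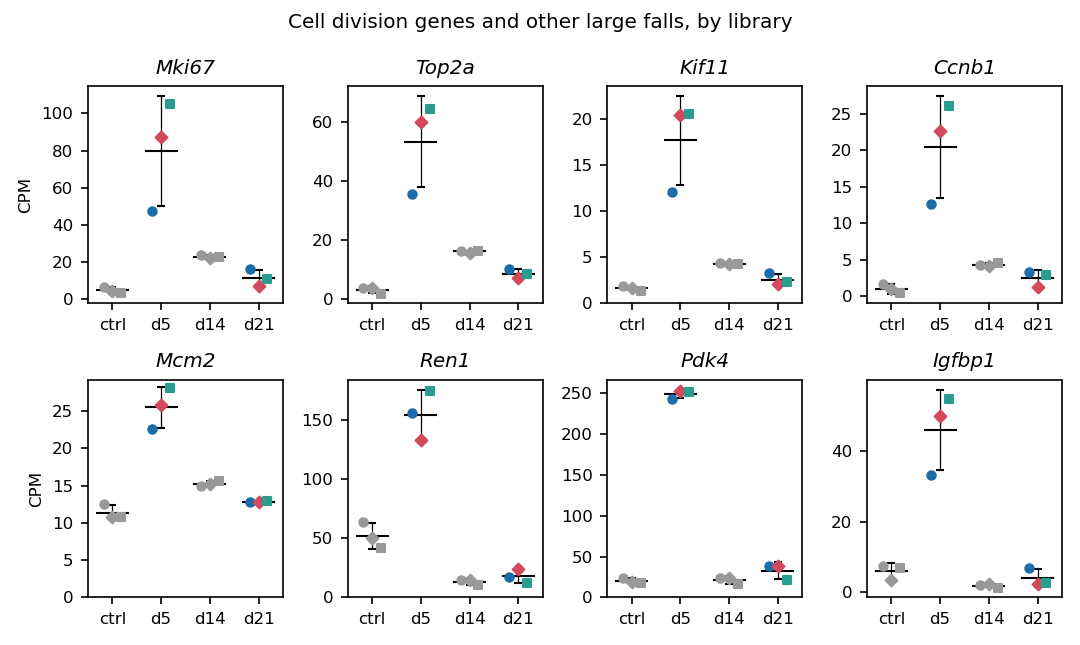
CPM by library for 8 genes that fell, with untreated (ctrl), day-5, day-14 and day-21 groups on the horizontal axis, the group mean as a line and SD as bars (n = 3). Circles, diamonds and squares are replicates 1, 2 and 3. All 3 day-21 libraries lie below all 3 day-5 libraries in every panel.

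Several of the other large falls were in hormone, fasting and plasma protein genes. The rule that chose the largest falls took only genes with all 3 day-21 libraries below all day-5 libraries. Ren1, renin, the enzyme that starts the angiotensin cascade, was at 156, 133 and 175 CPM at day 5 and at 17, 23.8 and 12.4 at day 21 (change -3.13 ± 0.26, adjusted p = 0.000226). The day-21 values were below the untreated mean of 51.8 ± 11.2 CPM. Pdk4, the kinase that blocks pyruvate oxidation and is induced by fasting, went from 243, 253 and 251 CPM to 38.9, 38.2 and 21.2 (change -2.93 ± 0.24, adjusted p = 0.000226). Its untreated mean was 20.3 CPM. Igfbp1, an insulin-like growth factor binding protein that insulin represses, went from 33.2, 49.8 and 54.7 CPM to 6.95, 2.44 and 2.73 (change -3.50 ± 0.43, adjusted p = 0.000978). Depp1, a target of FOXO factors, fell by 3.45 and Apoa4, an apolipoprotein, by 3.51 on the log2 scale. Thbs4, a matricellular protein, fell by 3.16 (adjusted p = 0.0259), but its day-21 values ran from 0.161 to 4.79 CPM.

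In the list of fibrinogen and acute phase genes 5 of 15 fell and 3 rose. The falls were the 3 fibrinogen chains and the serum amyloid A genes Saa1 and Saa2, and the same 5 fell without replicate 2. Fga, the fibrinogen alpha chain, was at 507, 370 and 617 CPM at day 5 and at 149, 63 and 86.8 at day 21 (change -2.32 ± 0.29, adjusted p = 0.00102). Fgb and Fgg fell by 1.75 and 2.08. All 3 chains remained above their untreated means, which were 13.3 CPM for Fga, 1.3 for Fgb and 8.22 for Fgg. Saa1 was at 5.01, 2.07 and 4.58 CPM at day 5 and at 0.0484, 0.0321 and 0.141 at day 21. Saa1 and Saa2 are near-identical, so reads between them are uncertain. Saa2 had 130 reads over the day-5 libraries and 1 read over the day-21 libraries, a ratio of shares of 110 with an exact 95% counting interval of 19.5 to 4390, which covers counting error only. The genes that rose were Socs3, the feedback inhibitor of STAT3 signalling, Serpina3n, a protease inhibitor, and Ltf, lactoferrin. Socs3 went from 6, 6.99 and 5.74 CPM to 36, 13.4 and 28.5 (change 2.06 ± 0.29, adjusted p = 0.00181). Serpina3n was at 31.1 and 39.1 CPM in day-21 replicates 1 and 3 but at 2.28 in replicate 2, within the day-5 range of 2.01 to 5.14.

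Among the metabolic falls, Pck1 and G6pc, the enzymes that begin and end gluconeogenesis, belonged to the few proximal tubule genes that passed with all libraries. G6pc was at 619, 725 and 622 CPM at day 5 and at 102, 200 and 94.8 at day 21 (change -2.31 ± 0.30, adjusted p = 0.00117). All day-21 values were below the untreated mean of 329 CPM. Sesn2, a stress-induced sestrin, went from 98.3, 89.6 and 88 CPM to 38.5, 28.7 and 27.5 (change -1.54 ± 0.14, adjusted p = 0.000414), and Chac1, which degrades glutathione, fell by 2.09. Of 20 genes of the unfolded protein and stress response 3 fell and 2 rose, the latter being the heat shock genes Hspa1a and Hspa1b, and 5 fell and 4 rose without replicate 2. These counts were near the shares of all genes tested, of which 11.8% fell and 15% rose (27.7% and 27.9% without replicate 2). Hspa5, the main chaperone of the endoplasmic reticulum, was at 689, 675 and 626 CPM at day 5 and at 273, 694 and 561 at day 21, and the groups overlapped.

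Macrophage genes rose. Of 22 tested 18 rose and none fell, at a median change of 1.66, and 22 of 22 rose without replicate 2, at a median of 1.84. Lyz2, lysozyme of myeloid cells, was at 13.4, 15.1 and 13.4 CPM at day 5 and at 235, 112 and 188 at day 21 (change 3.68 ± 0.26, adjusted p = 0.00014). Its untreated mean was 14 CPM. Adgre1, which encodes the macrophage surface protein F4/80, went from 3.33, 3.47 and 3.06 CPM to 11.2, 11.3 and 10.1, so that replicate 2 was level with the others (change 1.72 ± 0.13, adjusted p = 0.000226). Csf1r, the receptor for macrophage growth factor, rose from 28.3, 32.1 and 30.8 CPM to 51.2, 44.3 and 41.3 (change 0.58 ± 0.10, adjusted p = 0.00432), around the untreated mean of 48.6 CPM. Cd68, Cd14, Ly6c2 and Gpnmb did not pass with all libraries. In replicate 2 Cd68 was at 4.04 CPM, below the day-5 range of 4.06 to 4.92, against 12.6 and 9.75 in replicates 1 and 3. Over the list, replicate 2 was above the day-5 range for 16 of 22 genes and below it for 3.

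Several of the 12 largest rises, chosen like the largest falls, were genes of myeloid cells. Ms4a7, a membrane protein of macrophages, rose by 3.12 ± 0.40, Clec7a, the beta-glucan receptor dectin-1, by 2.95 ± 0.40, and C3ar1, the receptor for complement fragment C3a, by 3.20 ± 0.40. Trem2, a lipid receptor of tissue macrophages, was at 0.066, 0.168 and 0.169 CPM at day 5 and at 5.62, 0.738 and 5.22 at day 21 (change 4.78 ± 0.74, adjusted p = 0.00248). The day-5 values rest on few reads, so this change is imprecise.

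Antigen presentation followed. Of 9 genes of the MHC class II pathway 8 rose, at a median of 1.29, and 8 rose without replicate 2, at a median of 1.48. H2-Aa, a class II alpha chain, was at 61.5, 53.5 and 55.4 CPM at day 5 and at 232, 116 and 175 at day 21 (change 1.62 ± 0.21, adjusted p = 0.00125). Ciita, the master regulator of class II genes, rose by 1.29 ± 0.20 and Ctss, the protease that trims the invariant chain, by 1.93 ± 0.25. H2-Ob, a B cell gene of the pathway, was the one that did not pass.

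In the complement list 9 of 15 genes rose and 1 fell, at a median of 1.00, and without replicate 2 it was 11 and 1. The fit of the 6 compared libraries alone called 1 rise and no fall. C1qa, C1qb and C1qc, the chains of the first component, which macrophages make, rose by 1.70, 1.62 and 1.72. C1qa was at 10.5, 12.6 and 13.6 CPM at day 5 and at 50.8, 19.1 and 49.4 at day 21 (adjusted p = 0.00386). C3, the central component, did not pass: it was at 380, 374 and 585 CPM at day 5 and at 1142, 243 and 1426 at day 21, with replicate 2 below the day-5 range. Cfb, factor B of the alternative pathway, fell by 0.63 ± 0.18 (adjusted p = 0.0287). Cfd, factor D, also an adipocyte gene, ran from 0.198 to 107 CPM within day 5 and from 1.28 to 250 within day 21.

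Several immunoglobulin genes rose. Igkc, the kappa light chain constant region, was at 1.12, 1.09 and 1.3 CPM at day 5 and at 17.4, 10.2 and 10.9 at day 21 (change 3.45 ± 0.54, adjusted p = 0.00259). Igha, the heavy chain of IgA, went from 1.48, 1.93 and 1.52 CPM to 33.4, 17.8 and 16.2, and Jchain, which joins IgA and IgM units, from 0.594, 0.615 and 0.531 to 9.98, 4.94 and 4.3. Ighm, the IgM heavy chain, rose by 1.56 ± 0.25. The day-21 levels of Igkc, Igha and Jchain were above the untreated means of 2.36, 3.13 and 1.07 CPM. Igkj2, a joining segment next to Igkc, had values nearly the same as Igkc, so the reads cannot be told apart. In the same list Ms4a1 and Pax5, which define B cells, did not pass the filter on low counts, with at most 6 reads in any of the 6 libraries. In all 4 of 10 genes tested rose, and 6 without replicate 2.

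Other leukocyte lists changed less. Beside their counts stand the shares of all genes, 15% higher and 11.8% lower, or 27.9% and 27.7% without replicate 2. The T and NK cell list had 4 rises and no fall among 15 genes (5 rises without replicate 2), among them Lck, a kinase of the T cell receptor, from 1.09, 0.979 and 0.941 CPM to 2.18, 1.64 and 2.14 (change 0.99 ± 0.19, adjusted p = 0.00568). The T cell receptor chain Cd3d was at 0.462, 0.224 and 0.314 CPM at day 5 and at 0.291, 0.385 and 0.329 at day 21. Of 12 neutrophil genes listed, 5 passed the filter and 2 rose, Csf3r and Il1b (4 without replicate 2), while the granule genes Ngp, Camp and Mpo had at most 2 reads in any of the 6 libraries. Il1b, interleukin 1 beta, also made by macrophages, rose from 0.825, 0.308 and 0.41 CPM to 2.64, 1.73 and 2.04 (change 2.08 ± 0.34, adjusted p = 0.00289). In the cytokine and NF-kB list 6 of 25 genes rose and 2 fell (14 and 2 without replicate 2). The chemokines Ccl2, Ccl20, Cxcl5 and Cxcl16 rose, and Cxcl2 and Cxcl10 fell. Ccl20 went from 0.726, 0.699 and 0.483 CPM to 2.62, 1.22 and 7.64 (change 2.60 ± 0.59, adjusted p = 0.0116), and Cxcl10, an interferon-induced chemokine, from 19.9, 16.9 and 11.4 to 5.93, 9.41 and 6.91 (change -1.12 ± 0.24, adjusted p = 0.00979). Of 23 interferon-induced genes 9 rose and none fell with all libraries, at a median of 0.40, and 12 rose and 2 fell without replicate 2. Irf7, the transcription factor that amplifies the interferon response, rose by 1.08 ± 0.23, from 11.4 to 11.8 CPM at day 5 to 32.4, 14.4 and 26.6 at day 21.

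**Figure D3:**
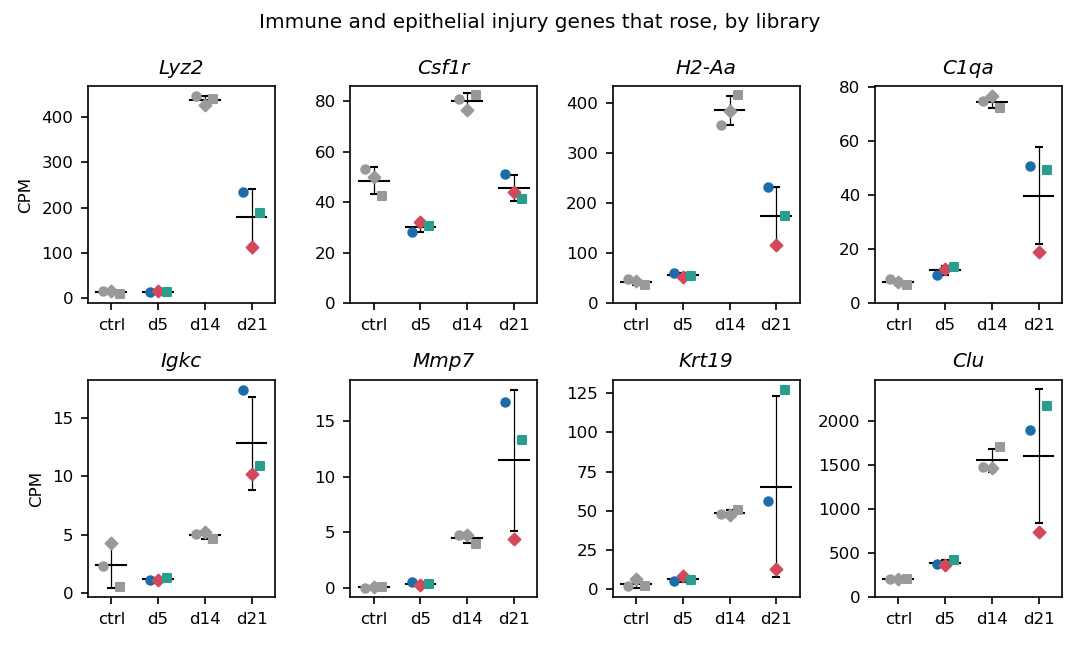
CPM by library for 8 genes that rose, drawn as in the plot of genes that fell (mean as a line, SD as bars, n = 3). In each panel all 3 day-21 libraries lie above all 3 day-5 libraries, and replicate 2 (diamond) is the lowest of the day-21 libraries in 7 of 8, all but Csf1r.

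Injury genes of the tubular epithelium rose in replicates 1 and 3, but as a list not in replicate 2. In each of replicates 1 and 3, 21 of the 24 genes lay above the day-5 range. In replicate 2 only 8 lay above that range and 11 lay below it. Of 24 tested 12 rose and 2 fell with all libraries, at a median of 0.90, and 21 rose and 2 fell without replicate 2, at a median of 1.25. Scaling to library totals gave 17 rises and no fall, and the fit of the 6 compared libraries alone called none of the 24. Krt19, a keratin of dedifferentiated epithelium and of ducts, was at 5.48, 8.36 and 5.67 CPM at day 5 and at 56.1, 13.2 and 127 at day 21 (change 3.33 ± 0.68, adjusted p = 0.00788). Clu, clusterin, a secreted chaperone, went from 376, 365 and 427 CPM to 1897, 745 and 2172 (change 2.04 ± 0.31, adjusted p = 0.00232). Lcn2, the injury marker NGAL, was at 70.3, 61.7 and 89.4 CPM at day 5 and at 578, 93.8 and 556 at day 21 (change 2.47 ± 0.51, adjusted p = 0.00819). In these 3 genes replicate 2 was above all day-5 libraries but nearer to them than to replicates 1 and 3. Sprr2f, a small proline-rich protein of stressed epithelium, was at 16.6 and 10.2 CPM in replicates 1 and 3, at 0.482 in replicate 2 and at 0.168 or less at day 5. Cbr3, a carbonyl reductase, was similar, with 24 and 23.7 CPM in replicates 1 and 3, 2.05 in replicate 2 and 1.48 to 1.71 at day 5. Oit1 rose by 3.69 ± 0.67 (0.755 to 0.845 CPM at day 5, and 9.35, 1.8 and 19.8 at day 21).

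Havcr1, which encodes KIM-1, the most used marker of proximal tubule injury, went against the list. It was at 237, 149 and 286 CPM at day 5 and at 160, 130 and 134 at day 21, with overlapping groups (change -0.66 ± 0.22, adjusted p = 0.0485). Without replicate 2 the fall was 0.62 (adjusted p = 0.0348), and the untreated mean was 2.59 CPM. The other fall in the list was Hmgb2, a chromatin protein of dividing cells, which fell by 0.63. With scaling to library totals neither fall passed.

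By the same rule, the largest rise was in Mmp7, matrilysin, a protease secreted by injured tubular epithelium. It was at 0.462, 0.252 and 0.362 CPM at day 5 and at 16.7, 4.37 and 13.3 at day 21 (change 5.00 ± 0.53, adjusted p = 0.000486). The rule required that the groups did not overlap. The untreated mean was 0.051 CPM.

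Matrix genes divided the day-21 libraries. With all libraries 10 of 33 rose and none fell, at a median of 0.62, and without replicate 2 27 rose, at a median of 0.92. Col1a1, the main chain of fibrillar collagen, was at 35.8, 50.4 and 60.9 CPM at day 5 and at 168, 38.8 and 117 at day 21. It did not pass with all libraries (change 1.14 ± 0.44, adjusted p = 0.0736) and rose without replicate 2 (1.53 ± 0.27, adjusted p = 0.000598). Mmp2 and Mmp14, which degrade matrix at and around the cell surface, and Thbs2, thrombospondin 2, rose in both fits. Mmp2 went from 2.24, 2.88 and 2.7 CPM to 26.9, 6.74 and 11.8, with replicate 2 above the day-5 range too (change 2.54 ± 0.42, adjusted p = 0.00308).

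Fibroblast and mural cell genes showed the same split: 5 of 19 rose and 1 fell with all libraries, and 14 rose and 1 fell without replicate 2. Pdpn, podoplanin, also a podocyte and lymphatic gene, rose from 6.86, 7.05 and 7.24 CPM to 40.4, 11.3 and 52.1 (change 2.30 ± 0.40, adjusted p = 0.00421). Acta2, the actin of smooth muscle and myofibroblasts, was named by a rule that took genes with replicate 2 on the other side of day 5. It was at 117 and 104 CPM in replicates 1 and 3, 18 in replicate 2, and 34.1, 53.5 and 52.4 at day 5. Replicate 2 was below the untreated mean of 23.4 CPM for Acta2. Timp1, an inhibitor of metalloproteinases, was named by the same rule. It was at 4.82 CPM in replicate 2, 34.7 and 34 in replicates 1 and 3, and 13.4 to 19.6 at day 5.

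The proximal tubule reclaims most of the filtered solute and runs on oxidised fat, and its genes set replicate 2 apart from replicates 1 and 3. Of 28 tested, 5 fell with all libraries and none rose, at a median of -1.10. Without replicate 2 all 28 fell, at a median of -2.33. In replicates 1 and 3 all 28 were below the day-5 range, while in replicate 2 10 were above it and 11 below. Lrp2, megalin, the receptor for protein uptake, was at 1681, 1667 and 1490 CPM at day 5 and at 298, 1443 and 272 at day 21. Its change was -1.27 ± 0.51 (adjusted p = 0.0848) with all libraries and -2.51 ± 0.10 (adjusted p = 1.3e-08) without replicate 2. Kap, the androgen-regulated kidney protein, was at 19646, 22838 and 21325 CPM at day 5 and at 637, 16140 and 420 at day 21.

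Organic anion transporters gave some of the largest gaps. Slc22a7, an anion transporter of the late proximal tubule, was at 65.9, 101 and 87.4 CPM at day 5, at 43 in day-21 replicate 2, and at 0.17 and 0.188 in replicates 1 and 3. Its change was -2.57 ± 1.28 (adjusted p = 0.147) with all libraries and -8.87 ± 0.39 (adjusted p = 1.77e-08) without replicate 2. Slc22a19 and Slc22a28, relatives of it, were at 1.55 and 6.68 CPM in replicate 1, 0.447 and 4.02 in replicate 3, but 55.6 and 203 in replicate 2. Mep1b, a brush border protease, was at 1.86 and 0.705 CPM in replicates 1 and 3 and at 101 in replicate 2, near the 104 to 124 of day 5. Some genes of this segment lay above day 5 in replicate 2. Cyp2a4, a steroid hydroxylase, was named by a rule that took genes with replicate 2 on the other side of day 5. It was at 116, 110 and 110 CPM at day 5 and at 13.8, 250 and 8.72 at day 21. Its untreated mean was 408. The 5 genes that fell with all libraries were Slc4a4, Pck1, Fbp1, G6pc and Ggt1.

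**Figure D4:**
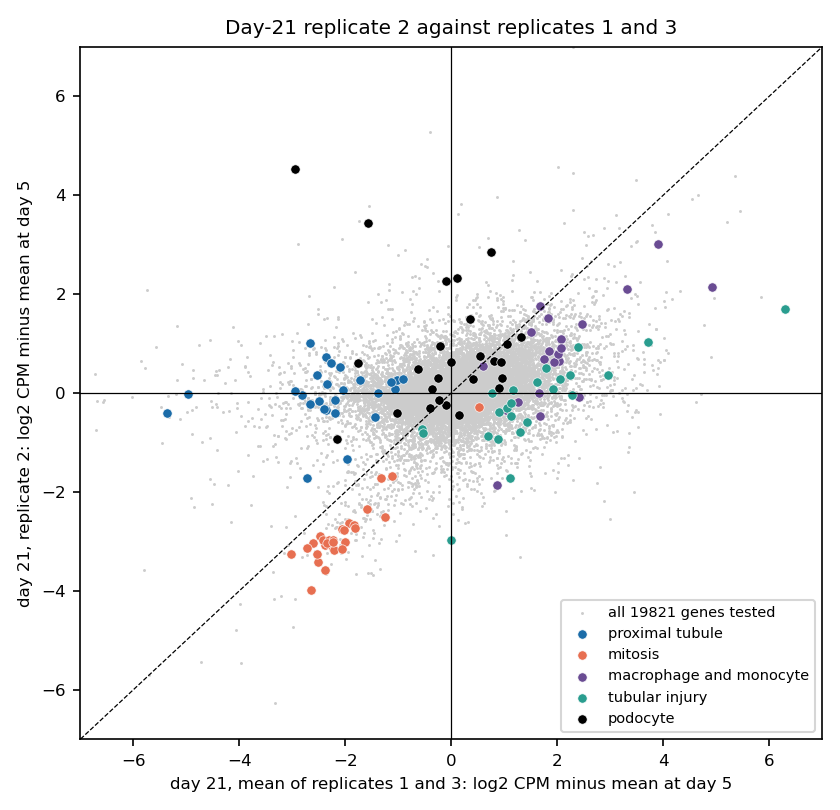
Each point is a gene: log2 CPM minus the day-5 mean in day-21 replicate 2 (vertical) against the mean of replicates 1 and 3 (horizontal). The dashed line marks equal values, 5 lists are coloured, and 3 genes lie beyond the axes at 7. Mitosis genes (orange, Kif23 near 0 apart) lie below the dashed line, while proximal tubule genes (blue) are spread along the zero line of replicate 2.

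Mitochondrial and fat oxidation genes went with the proximal tubule genes. None of the 13 protein genes of the mitochondrial genome and none of 22 nuclear respiratory chain genes passed with all libraries. Without replicate 2 all 13 and all 22 fell, at medians of -1.34 and -0.88. The gene mt-Co1, a subunit of complex IV, was at 38295, 35729 and 35329 CPM at day 5 and at 20420, 41734 and 19708 at day 21. Reads of mitochondrial genes may be shared with nuclear copies. Of 23 genes of fatty acid oxidation 11 fell with all libraries and 21 without replicate 2, where 1 rose. Ppara, the nuclear receptor that turns these genes on, was at 130, 122 and 134 CPM at day 5 and at 71.8, 86.5 and 38 at day 21 (change -0.97 ± 0.23, adjusted p = 0.0146), so that replicate 2 fell here too. Cyp4a14, a PPAR-alpha target, was the one that rose without replicate 2, at 275, 131 and 259 CPM at day 5 and 521, 346 and 358 at day 21.

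Podocyte genes, the direct target of the toxin, gave a mixed picture: 8 of 26 tested rose and 3 fell with all libraries, at a median of 0.50, and 9 rose and 10 fell without replicate 2, at a median of -0.05. The fit of the 6 compared libraries alone called 1 rise and no fall in this list. Nphs1, nephrin of the slit diaphragm (chr7:30157740-30186648, GRCm39), was at 1.19, 1.99 and 1.35 CPM at day 5 and at 0.412, 16.5 and 0.517 at day 21. Its untreated mean was 22.2 ± 2.3 CPM (SD, n = 3). The change was 1.92 ± 1.06 with all libraries (adjusted p = 0.188) and -1.70 ± 0.32 without replicate 2 (adjusted p = 0.000838), so the direction rests on that library. Ptpro, a receptor phosphatase of the podocyte surface, was at 1.42, 1.76 and 1.28 CPM at day 5 and at 2.64, 11 and 2.37 at day 21, against 15.6 untreated. It rose with all libraries (change 1.83 ± 0.50, adjusted p = 0.0236) and without replicate 2 (0.75 ± 0.14, adjusted p = 0.000968). For both genes replicate 2 was nearer the untreated mean than the day-5 values.

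Other podocyte genes rose in all 3 day-21 libraries. Wt1, the transcription factor that maintains podocytes, was at 1.55, 1.71 and 1.57 CPM at day 5 and at 2.13, 4.65 and 2.02 at day 21, with no overlap (change 0.86 ± 0.28, adjusted p = 0.0447). Without replicate 2 its rise was 0.36 ± 0.14 (adjusted p = 0.0496). The untreated mean of Wt1 was 8.03 CPM. Plce1, Thsd7a and Tcf21, of which Thsd7a is an autoantigen of membranous nephropathy, rose in both fits, and Thsd7a was at 2.54, 3.92 and 3.47 CPM at day 5 and 9.83, 7.25 and 6.77 at day 21. With scaling to library totals the median of the podocyte list without replicate 2 was 0.43, against -0.05 with TMM factors. Cell types other than podocytes also express Tcf21, Nes and Synpo, which were among the rises. The falls were Col4a3 and Col4a4, the chains of the mature glomerular basement membrane, which are also made in tubules, and Dpp4. Col4a3 was at 259, 282 and 288 CPM at day 5 and at 75.2, 146 and 51 at day 21 (change -1.61 ± 0.29, adjusted p = 0.00472).

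**Figure D5:**
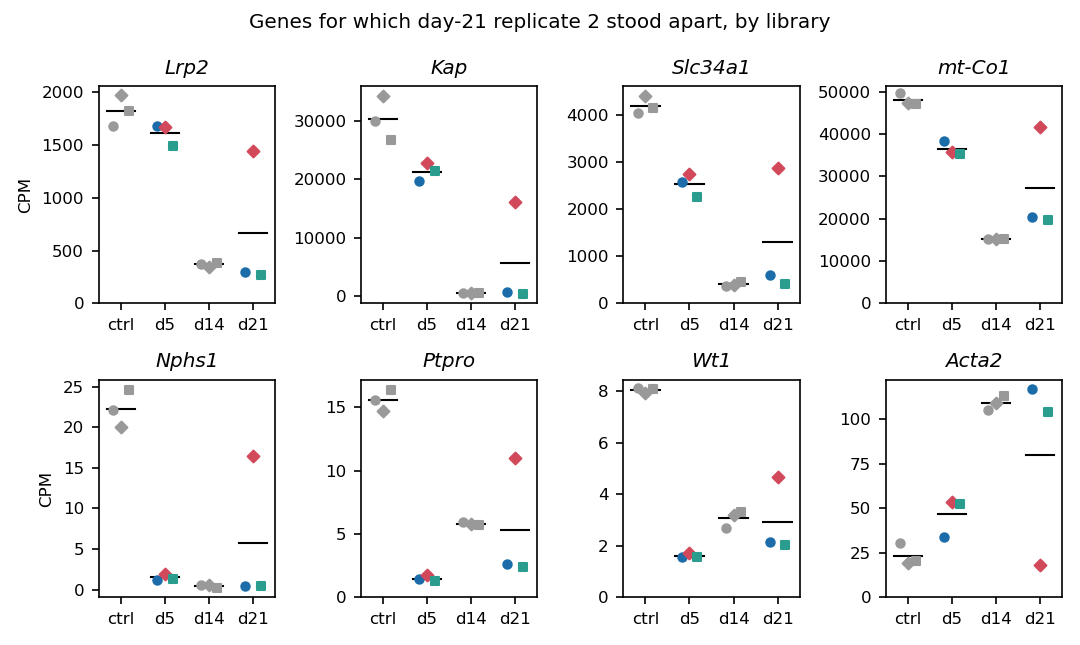
CPM by library for 8 genes in which day-21 replicate 2 (diamond) lay apart from replicates 1 and 3, with the group mean as a line and the groups as in the other plots by library. For Lrp2, Kap, Slc34a1 and mt-Co1 replicate 2 is near day 5, for Nphs1 and Ptpro it is nearer the untreated mice, and for Acta2 it is below all day-5, day-14 and other day-21 libraries. For Wt1 it is the highest day-21 library, at 4.65.

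Collecting duct genes moved against the proximal tubule. Of 17 tested 9 rose and 1 fell, at a median of 0.67, and 12 rose and 2 fell without replicate 2. Aqp2, the water channel that vasopressin moves to the membrane, was at 61.1, 61.2 and 53.3 CPM at day 5 and at 228, 171 and 330 at day 21 (change 2.05 ± 0.23, adjusted p = 0.000668). All day-21 values were above the untreated mean of 101 CPM, which the day-5 values were below. Avpr2, the vasopressin receptor, rose from 10.2, 8.42 and 7.7 CPM to 18.3, 16.8 and 33 (change 1.37 ± 0.24, adjusted p = 0.00421), Aqp3 by 1.22, and the sodium channel subunits Scnn1b and Scnn1g by 1.05 and 0.67. Genes of principal cells made up most of the rises, and Atp6v0d2 was the intercalated cell gene among them. The fall was Slc26a4, pendrin, of intercalated cells, from 69.9, 65.5 and 58.4 CPM to 21.4, 49.5 and 25 (change -1.02 ± 0.25, adjusted p = 0.0165).

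In the loop and distal tubule list 3 of 16 genes rose and 1 fell, and without replicate 2 3 rose and 7 fell, at a median of -0.18 that was 0.30 when scaled to library totals. Shares over all genes were 15% higher and 11.8% lower, and 27.9% and 27.7% without replicate 2. Cldn16, a claudin of magnesium uptake, and the kinase gene Wnk4 were among the rises. Umod fell by 0.59 ± 0.16 (adjusted p = 0.0219). Egf, epidermal growth factor, was at 698, 773 and 642 CPM at day 5 and at 48.1, 611 and 37.7 at day 21, against 1619 untreated. Pvalb, parvalbumin of the early distal tubule, had 359 reads over the day-5 libraries, 449 in day-21 replicate 2, and 1 over replicates 1 and 3.

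Several clock genes differed between the days in all 3 libraries. Of 18 tested 7 rose and 3 fell, and 10 rose and 5 fell without replicate 2. Arntl and Npas2, activators of the clock, fell by 1.62 and 1.83, and their repressors and output genes Per2, Per3 and Dbp rose by 1.55, 2.65 and 2.64. Per3 was at 2.21, 2.46 and 2.24 CPM at day 5 and at 17.8, 9.28 and 16.4 at day 21 (adjusted p = 0.000226), against 24.4 untreated. Dbp was at 4.22, 3.97 and 4.03 CPM at day 5 and at 33.2, 27.5 and 15.7 at day 21, against 104 untreated. The labels give no hour of harvest, so time of day and day after toxin cannot be told apart.

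Genes of cholesterol metabolism rose in part: 9 of 22 with no fall with all libraries (median 0.14), and 9 with 5 falls without replicate 2 (median -0.02, and 0.46 when scaled to library totals). Fdps, an enzyme of the shared isoprenoid path, went from 14.5, 14.6 and 15.5 CPM to 28.7, 25.6 and 32.8 (change 0.97 ± 0.09, adjusted p = 0.00042). Hmgcs1, Idi1, Cyp51 and Mvd were among the falls without replicate 2, and Cyp51 was at 175, 173 and 171 CPM at day 5 and 40.7, 154 and 35.8 at day 21.

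Genes that mark arrest and acute signalling moved in both directions, as did genes in general. Of all genes tested 15% rose and 11.8% fell with all libraries, and 27.9% rose and 27.7% fell without replicate 2. Of 19 p53 targets and cell cycle inhibitors 6 rose and 4 fell, and 8 rose and 7 fell without replicate 2. Cdkn1a, the inhibitor p21, did not pass with all libraries, at 49.7, 67.5 and 77.1 CPM at day 5 and 33.8, 6.87 and 46.3 at day 21 (change -1.16, adjusted p = 0.0891), and fell by 0.70 without replicate 2. Its untreated mean was 2.92 CPM. Cdkn2a, which encodes p16 and ARF, had 0, 1 and 0 reads at day 5 and 11, 1 and 20 at day 21, a ratio of shares of 37.7 (exact 95% counting interval 6.3 to 1540). Cdkn2b, p15, rose by 1.10 ± 0.31. Of 20 immediate early genes 2 rose and 4 fell with all libraries, and 8 rose and 4 fell without replicate 2. Egr1, a factor induced within minutes of stimulation, went from 63, 55.2 and 49.3 CPM to 21.1, 10.4 and 23.1 (change -1.61 ± 0.29, adjusted p = 0.00501), while Klf4 rose by 1.86 and Ier3 by 1.21.

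Endothelial genes fell in part: 5 of 18 fell and 1 rose, at a median of -0.31 (9 and 2 without replicate 2). The median was 0.00 when libraries were scaled to their totals, with 1 fall and 4 rises. That scaling put the median over all genes at 0.37, so the list stayed below it. Plat, tissue plasminogen activator, went from 71.8, 85 and 89.7 CPM to 52.6, 40.5 and 37.2 (change -0.92 ± 0.15, adjusted p = 0.00294), and Cldn5, a claudin of endothelial junctions, rose by 1.10. Of 24 ribosomal protein genes 6 rose and none fell, and 20 rose without replicate 2, at a median of 0.39. With scaling to library totals 22 rose, and the median was 0.66 with all libraries and 0.88 without replicate 2.

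Markers of blood and fat differed widely between libraries of the same day. The summed CPM of 8 erythroid genes was 731 to 931 at day 5, 651 and 920 in day-21 replicates 1 and 2, and 62.4 in replicate 3. Hba-a1, a globin nearly identical to Hba-a2, was at 4.82 CPM in replicate 3 and at 196 or more in the other 5 libraries. Summed CPM of 11 adipocyte genes was 69.5, 496 and 113 at day 5 and 38.6, 76.9 and 698 at day 21, and the adipocyte hormone gene Adipoq was at 0 in day-5 replicate 1 and 23.5 and 30.6 in day-5 replicate 2 and day-21 replicate 3. None of these 19 genes passed with all libraries, 2 erythroid genes fell without replicate 2, and their part in the results above was not tested. Of 8 liver genes, 5 were tested and 3 fell, Apoa1, Ttr and Serpina1a, and all 5 fell without replicate 2. The summed CPM of the 5 was 321, 271 and 334 at day 5 and 86.2, 121 and 50.6 at day 21, with no overlap, while Ahsg, Cps1 and Cyp3a11 had at most 5 reads in any of the 6 libraries. Urothelial genes gave 1 rise in 8, Krt15, in both fits, where 15% and 27.9% of all genes rose.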

How the data were processed

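Poly(A) RNA-seq of whole kidney was deposited as 1 table of raw read counts for 56722 genes in 12 libraries (4 groups of 3). Reads were trimmed with fastp 0.20.0 and counted per gene with featureCounts on GRCm39, per the submitters' processing notes, so the deposited values are counts as the authors made them. Neither the labels nor the table name the aligner, the annotation release or the handling of strand and shared reads. Reads from overlapping genes or near-identical copies cannot be told apart. Genes with no symbol held 2.14% of counts.

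Genes with low counts were removed with filterByExpr, libraries were scaled with TMM factors, and day 21 was compared with day 5 in edgeR 4.0.16 (quasi-likelihood, R 4.3.3) fitted on all 12 libraries with group as the only term. The procedure was tested on simulated data in which all groups had the same spread and no library stood apart. That test therefore does not cover the effect of day-21 replicate 2. Alternatives used limma 3.58.1, DESeq2 1.42.0, other scalings and filters, fewer libraries, a replicate block and a minimum log2 fold change of 1. The fit without day-21 replicate 2 was planned with that library already known, from earlier results of these data, to stand apart. The fits that combine another scaling, or the 5 compared libraries alone, with leaving out day-21 replicate 2 were chosen after seeing the data. CPM values use the TMM-scaled library sizes.

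The gene lists and the members named were chosen with earlier results of these data known. Genes named are 8 always given, the 12 largest rises and falls, the 3 members of each list with the smallest adjusted p, and the genes that changed most without day-21 replicate 2. Other list members printed were chosen after their values were seen. The sources do not say how the replicates of a group were housed or processed, so p-values measure the spread between these samples. Some genes are not reported here.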

Additional observations from a re-analysis of the deposited data

How the results depend on the processing

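With all libraries 5325 genes changed, 2983 higher and 2342 lower. Leaving out 1 of the 6 compared libraries at a time gave between 2089 and 11506 changed genes, between 1217 and 5764 higher and between 872 and 5742 lower. The highest counts came without day-21 replicate 2. The counts of changed genes without day-5 replicates 1, 2 and 3 were 2653, 2334 and 2089, and those without day-21 replicates 1 and 3 were 3101 and 2589. The 6 compared libraries alone gave 506 changed genes of 18284 tested (2.77%), 265 higher and 241 lower. A minimum absolute log2 fold change of 1 left 2134, 1564 and 570. Scaling to library totals gave 6474 higher and 976 lower. Of the combinations without day-21 replicate 2, library totals gave 14129 changed and 11767 higher, median-of-ratios scaling gave 11489 changed, 5709 higher and 5780 lower, and the 5 compared libraries alone gave 10220, 5180 and 5040. Median-of-ratios scaling, DESeq2, limma-voom and both other low-count filters gave counts within 1.5 times those of the main analysis in each direction.

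Same-numbered libraries of the 2 days did not deviate together (r of -0.0309, -0.00327 and 0.0494 for numbers 1, 2 and 3), so the numbers were not taken as pairs. A fit with the replicate block gave 4825 changed genes, 2540 higher and 2285 lower.

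Some log2 changes turned direction. With all libraries they were 1.92 ± 1.06 for Nphs1, 0.69 ± 0.92 for Tnn and 0.71 ± 0.46 for Slc4a1. Mfsd2a (0.04 ± 0.88) and Slc51a (0.00 ± 0.58) had no clear direction with all libraries. Tnn, Mfsd2a and Slc51a were named because replicate 2 lay across the day-5 mean from replicates 1 and 3. Their turn therefore followed from the choice. In the order without day-21 replicate 2, then also with library totals, with median-of-ratios scaling and with the 5 compared libraries alone, the values were -1.70, -1.22, -1.71 and -1.69 for Nphs1. They were -2.33, -1.85, -2.33 and -2.32 for Tnn, then -2.35, -1.88, -2.35 and -2.33 for Mfsd2a, and -1.51, -1.02, -1.51 and -1.50 for Slc51a. Slc4a1 was at -0.36 without replicate 2 and at -0.36 with median-of-ratios scaling as well. With library totals and without replicate 2, Bpgm was at 0.20, Star at 0.66 and Uty at 0.26. In the main fit they were at -0.17, -0.10 and -0.09. The median over all genes was 0.52 with library totals and without replicate 2, against 0.03 in the main fit. Over the settings that leave out 1 library, the highest values of Nphs1, Slc4a1, Tnn, Mfsd2a and Slc51a were 2.47, 1.07, 1.22, 0.58 and 0.43, and the lowest were those without day-21 replicate 2. The cause was not tested.

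Genes at a few reads per library, such as Saa2, Cdkn2a and Trem2 at day 5, have imprecise changes at this depth.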
